A study of Mus musculus with 116 samples.

Results

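RNA of late 2-cell mouse embryos that had passed through a temporary block of transcription was compared with RNA of PN5 zygotes, the last of the pronuclear stages. The comparison asked which genome activation and which loss of maternal RNA were still found after the block. It used 1 library a side, so no difference has a replicate check and no p-value is given. Of 24028 gene symbols in the deposited table, 13489 reached 1 FPKM in one or both of these libraries and were taken as measured. FPKM counts fragments per unit of transcript length and of library size. The DRB-released embryos were collected as zygotes 23 h after hCG, which induces ovulation, and kept for 14 h in 60 uM DRB. The drug was removed as they entered the 2-cell stage, and culture went on for 12 h. Control late 2-cell embryos had the same schedule in 0.1% DMSO. PN5 zygotes were taken 30 h after hCG, and their labels name no drug or vehicle. All embryos were wild-type, from C57BL/6N females crossed with PWK males. Females were 8 weeks old and had been given PMSG and hCG, and each library pooled about 100 embryos. The libraries were made from total RNA after depletion of ribosomal RNA. The sample title calls the drug group mTBE, an abbreviation the labels do not expand, and the table's column name gives DRB. Stage, exposure and time in culture differ together between DRB-released embryos and PN5 zygotes and cannot be told apart.

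The mouse oocyte stops transcribing before it matures, and the fertilized egg starts life on stored maternal RNA. A minor wave of transcription begins in the zygote and a major wave follows in the late 2-cell embryo, while maternal RNA is cleared by regulated deadenylation and decay. DRB inhibits Cdk9, the kinase that releases paused RNA polymerase II into productive elongation.

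Promoter sequences are shown for genes that stood at the ends of the comparison and held a motif searched for here, as they carry letters referred to further on. They are RefSeq sequences of assembly GRCm38.p6, from 250 bases before to 50 bases after the annotated start, read 5′ to 3′ on the gene's strand. This build is not the authors' build, and no position was carried between the builds. The metallothionein genes Mt2 (chr8:94172368-94172667, plus strand) and Mt1 (chr8:94178839-94179138, plus strand) encode small proteins that bind zinc and copper. Their capitals mark metal response elements, TGCACNC or TGCGCNC on either strand, which are bound by the zinc-sensing factor Mtf1. Zfp352 (chr4:90218570-90218869, plus strand), a zinc finger gene of the 2-cell stage, has GGATTA on the minus strand in a run of repeats, shown as TAATCC in capitals. GGATTA is bound by homeodomains of the Otx and Obox type. Bms1 (chr6:118419368-118419667, minus strand) encodes a GTPase of small ribosomal subunit assembly, and Rfc3 (chr5:151651159-151651458, minus strand) a subunit of the clamp loader of DNA replication. Their capitals mark CCGGAAG on either strand, a site of Ets factors such as Gabpa.
Mt2: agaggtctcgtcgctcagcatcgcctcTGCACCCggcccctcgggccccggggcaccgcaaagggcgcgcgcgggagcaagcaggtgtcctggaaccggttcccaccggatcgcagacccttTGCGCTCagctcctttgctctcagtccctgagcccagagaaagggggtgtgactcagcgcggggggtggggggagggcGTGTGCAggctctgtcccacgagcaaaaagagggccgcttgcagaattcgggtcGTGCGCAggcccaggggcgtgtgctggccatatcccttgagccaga
Mt1: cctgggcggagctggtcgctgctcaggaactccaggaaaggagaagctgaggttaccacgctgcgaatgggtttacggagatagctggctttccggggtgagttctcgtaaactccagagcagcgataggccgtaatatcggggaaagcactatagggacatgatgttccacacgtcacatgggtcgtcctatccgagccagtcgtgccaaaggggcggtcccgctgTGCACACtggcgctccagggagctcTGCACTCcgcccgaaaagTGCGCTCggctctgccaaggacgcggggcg
Zfp352: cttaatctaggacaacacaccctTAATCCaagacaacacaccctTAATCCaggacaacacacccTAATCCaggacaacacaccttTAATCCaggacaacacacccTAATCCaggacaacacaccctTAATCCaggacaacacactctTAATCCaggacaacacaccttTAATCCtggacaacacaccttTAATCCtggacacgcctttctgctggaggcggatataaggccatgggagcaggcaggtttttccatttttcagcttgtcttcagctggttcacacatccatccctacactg
Bms1: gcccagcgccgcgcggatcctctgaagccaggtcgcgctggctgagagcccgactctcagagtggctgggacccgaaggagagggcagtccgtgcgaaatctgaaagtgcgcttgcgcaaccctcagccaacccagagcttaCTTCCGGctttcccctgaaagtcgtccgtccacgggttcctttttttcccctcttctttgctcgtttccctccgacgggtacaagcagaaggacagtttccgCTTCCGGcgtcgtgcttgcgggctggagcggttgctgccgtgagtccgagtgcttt
Rfc3: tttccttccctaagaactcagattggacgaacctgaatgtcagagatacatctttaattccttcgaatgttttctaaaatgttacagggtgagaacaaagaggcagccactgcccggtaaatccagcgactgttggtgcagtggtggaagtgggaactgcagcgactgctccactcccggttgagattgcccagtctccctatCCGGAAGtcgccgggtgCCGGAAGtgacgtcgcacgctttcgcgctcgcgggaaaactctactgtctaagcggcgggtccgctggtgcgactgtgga

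A gene was counted as higher or lower when log2(FPKM + 1) differed by at least 1, about 2-fold. Of the 13489 measured genes, 3963 (29.4%) were higher in DRB-released embryos than in PN5, and 2385 (17.7%) were lower. The median difference over all measured genes was 0.27. At a difference of at least 2, about 4-fold, 1278 genes were higher and 635 lower, and at 4, about 16-fold, 95 were higher and 17 lower. The control library set against the same PN5 library gave 3970 higher (30.5%) and 2218 lower (17.0%) of 13022 measured genes, with a median of 0.28. At 4-fold these were 1650 and 559 genes, and at 16-fold 245 and 13. The comparisons share PN5, and their values are given side by side only. Just inside the threshold lay Aen at 8.44 FPKM in DRB-released embryos and 3.72 FPKM in PN5, and just outside it Usp13 at 5.67 and 2.34 FPKM in the same order. On the lower side Inpp5k lay just inside, at 3.54 FPKM in DRB-released embryos and 8.09 FPKM in PN5, and Coro1c just outside, at 7.18 and 15.4 FPKM. FPKM is a share of a library. Fewer transcripts per embryo and a larger share of other RNA cannot be told apart, nor can fewer cells of a type and less RNA per cell. With the median ratio of genes at 5 FPKM or more in both libraries set to 0, the median of all measured genes was 0.46 in place of 0.27, and 4629 genes were higher and 2040 lower. Genes named beyond the largest differences and the leading members of each list were chosen after their values were seen.

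**Figure D1:**
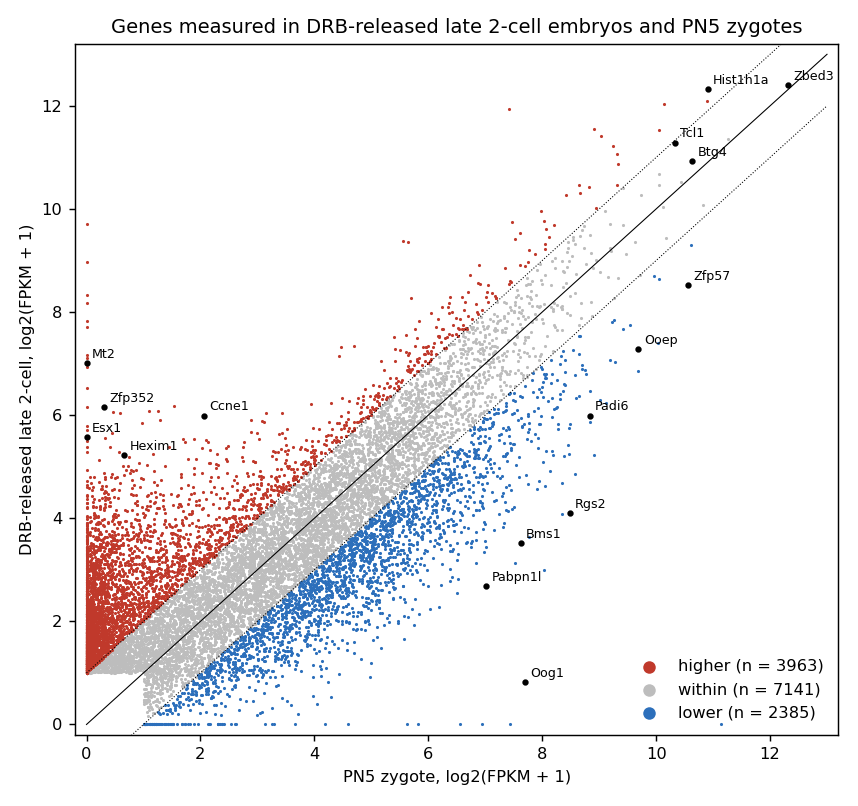
Each point is 1 of 13489 measured genes, with log2(FPKM + 1) in PN5 zygotes on the x axis and in DRB-released late 2-cell embryos on the y axis. The solid line marks equal values and the dotted lines a difference of 1. The 3963 higher genes crowd at the left edge, at low PN5 values, and the 2385 lower genes extend to the highest PN5 values.

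Higher genes were mostly genes that PN5 hardly held. Of 3963 higher genes 2832 were below 1 FPKM in PN5, and 895 of them were listed at 0 there. A gene below 1 FPKM in PN5 cannot be lower by the rule used, and 3492 of the measured genes were of this kind. In total 13022 genes were at 1 FPKM or more in DRB-released embryos and 9997 in PN5. The median level of the higher genes was 4.45 FPKM in DRB-released embryos and 4.55 FPKM in control embryos, against 0.232 FPKM in PN5. In DRB-released embryos 2145 of them lay from 1 to 5 FPKM and 159 at 100 FPKM or more. Lower genes had a median of 6.35 FPKM in DRB-released embryos and 7.84 FPKM in control embryos, against 24.3 FPKM in PN5. Only 74 of the 2385 lower genes were listed at 0 in DRB-released embryos.

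The share of lower genes grew with the level in PN5. It was 9.16% of 2936 genes at 1 to 5 FPKM in PN5, 23.0% of 3361 genes at 5 to 20, 34.9% of 2973 genes at 20 to 100 and 41.7% of 727 genes at 100 FPKM or more. The pseudocount holds differences of low genes down. The PN5 values that set the bands also enter the differences. Scatter in the 1 PN5 library alone would therefore give a trend in this direction, and its part was not tested. The medians of these bands were 0.23, -0.25, -0.50 and -0.68. The control medians of the same bands were 0.26, -0.10, -0.44 and -0.74. Lower genes were listed in the mature oocyte and higher genes mostly were not. This follows in part from the rule, since a lower gene must be at 1 FPKM or more in PN5. Of the 3963 higher genes 2832 were below 1 FPKM there. The shares that follow were not matched for level in PN5. In MII oocytes, a separately normalized table, 97.7% of lower genes were at 1 FPKM or more, 87.3% of genes within 2-fold, 30.0% of higher genes and 5 of the 95 genes higher at 16-fold. In the inner cell mass of the blastocyst, also normalized separately and made from polyadenylated RNA, 49.6% of higher and 73.2% of lower genes were at 1 FPKM or more in both replicates. Over all measured genes these shares were 72.3% in MII and 61.7% in the inner cell mass.

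**Figure D2:**
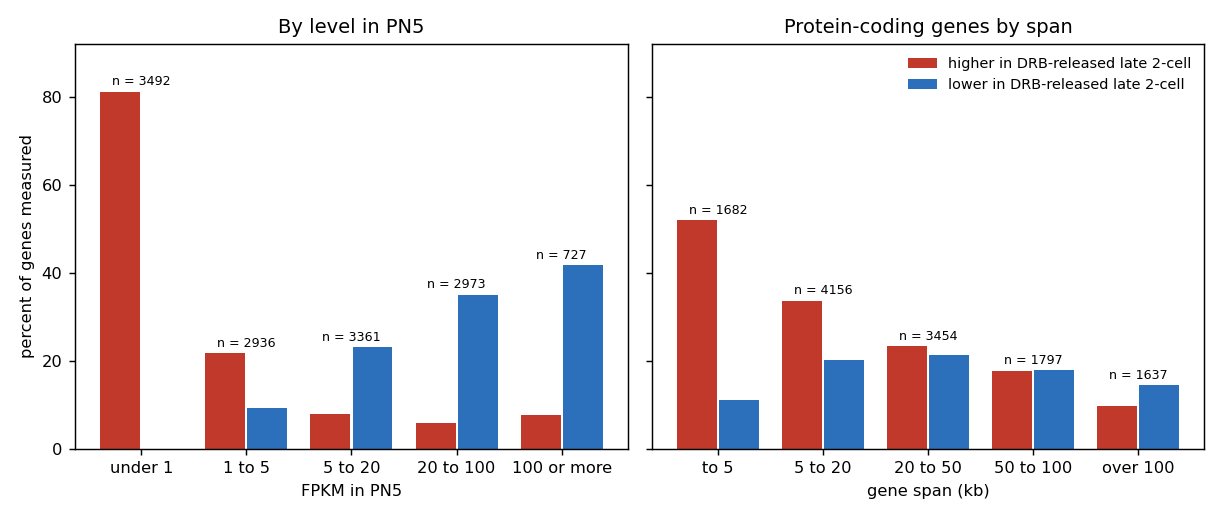
Bars give the percent of measured genes that were higher or lower in DRB-released late 2-cell embryos than in PN5, by FPKM in PN5 (left) and, for protein-coding genes, by gene span in kb (right), with the number of genes above each pair. Lower genes made up 41.7% of genes at 100 FPKM or more in PN5, and higher genes 52.0% of genes of at most 5 kb. The PN5 values that set the level bands also enter the differences.

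Among genes at 10 FPKM or more in 1 of the libraries, Mt2 had the largest increase. Mt2 was at 128 FPKM in DRB-released embryos and 233 FPKM in control embryos, and was listed at 0 in PN5. Mt1, its neighbour, was at 40.6 FPKM in DRB-released embryos and 142 FPKM in control embryos, and was listed at 0 in PN5. Zfp352 was at 70.3 and 95.7 FPKM in DRB-released and control embryos, against 0.241 FPKM in PN5, a difference of 5.84 for DRB-released embryos. Slc34a2, a sodium-phosphate cotransporter, was at 65.0 and 216 FPKM in DRB-released and control embryos, against 0.496 FPKM in PN5. In each of these 4 genes both late 2-cell libraries lay far above PN5, with control the highest. Esx1, an X-linked homeobox gene known from the placenta, had the other order, with 46.8 FPKM in DRB-released and 23.5 FPKM in control embryos, and was listed at 0 in PN5. Ctsl encodes the lysosomal protease cathepsin L and was at 66.5 and 141 FPKM in DRB-released and control embryos, against 1.13 FPKM in PN5. Ficd encodes an enzyme that modifies the chaperone BiP and was at 40.5 and 98.4 FPKM in the late 2-cell libraries, against 0.33 FPKM in PN5. Smad7, an inhibitor of TGF-beta signalling, was at 34.0 and 50.1 FPKM in DRB-released and control embryos, against 0.17 FPKM in PN5. The remaining genes of the 15 largest increases were Trim43b, Obox6, Hist2h2ac, Hist1h3i, Gm11544, Gm15455 and D030056L22Rik. They ranged from 29.8 FPKM (Obox6) to 66.1 FPKM (Hist2h2ac) in DRB-released embryos and were below 1 FPKM in PN5.

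**Figure D3:**
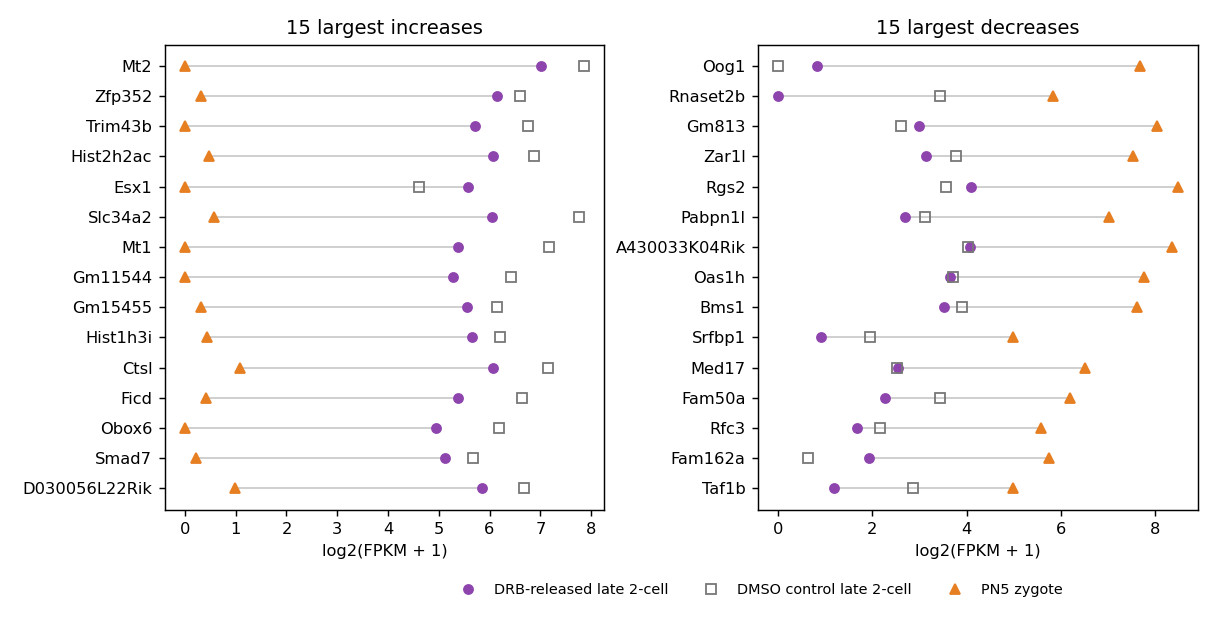
Log2(FPKM + 1) of the 15 largest increases (left) and decreases (right) among genes at 10 FPKM or more in DRB-released late 2-cell embryos or PN5, small RNAs left out. Filled circles are DRB-released late 2-cell, open squares control late 2-cell and triangles PN5. In the left panel control lies above DRB-released for every gene but Esx1, and in the right panel both late 2-cell libraries lie far below PN5.

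Transcripts listed as markers of 2-cell embryos were higher after the block in 35 of 45 measured genes and lower in 5, with a median difference of 2.99. The table held 53 such genes, of which 29 were measured through DRB-released embryos alone and 8 were not measured, so this count leans to higher values. For all measured genes the shares were 29.4% higher and 17.7% lower, and 81.1% of those below 1 FPKM in PN5 were higher. In control embryos 36 of 46 were higher and 6 lower, with a median of 3.58. Their summed level was 855 FPKM in DRB-released and 1505 FPKM in control embryos, against 845 FPKM in PN5. The PN5 sum came largely from genes that were lower or within 2-fold after the block. Pramef12, a PRAME family gene, was at 70.9 FPKM in DRB-released and 78.8 FPKM in control embryos, against 307 FPKM in PN5. Arg2, a mitochondrial arginase, was at 19.2 and 32.3 FPKM in the late 2-cell libraries, against 141 FPKM in PN5, and Sp110 at 18.96 and 26.0, against 111 FPKM. Pramef12, Arg2 and Sp110 were already at 202, 92.9 and 134 FPKM in the separately normalized MII library. In that library 12 of the 53 genes were at 1 FPKM or more, so not every member was particular to the 2-cell stage. Among the higher genes Tmem92 was at 23.9 and 74.3 FPKM in DRB-released and control embryos, against 1.36 FPKM in PN5. The telomere-associated Zscan4d was at 6.48 and 12.8 FPKM, against 0.973 FPKM in PN5, and Zscan4c at 3.90 and 6.95, against 0.538 FPKM. Tdpoz4 was at 20.8 and 47.5 FPKM in DRB-released and control embryos and was listed at 0 in PN5. Dux, a homeobox activator of this group known to peak early and briefly, was at 1.68 and 0.991 FPKM, against 2.24 FPKM in PN5. Most of these genes belong to families of near-identical copies (Zscan4, Usp17l, Tdpoz, Trim43, Pramef), so single members are uncertain.

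The Obox family, homeobox genes of oocyte and early embryo, had 2 of 5 members higher and 2 lower after the block (median 0.05), and the same counts in control embryos (median -0.50). Obox6 was at 29.8 and 72.1 FPKM in DRB-released and control embryos and was listed at 0 in PN5, and Obox3 was at 26.7 and 88.7, against 0.347 FPKM in PN5. Obox5 was at 604 and 414 FPKM, against 585 FPKM in PN5, a difference of 0.05 after the block. Obox1 was lower, at 108 and 85.8 FPKM, against 381 FPKM in PN5. Members of this family share sequence and are uncertain one by one. All measured genes had 29.4% higher and 17.7% lower.

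Of 29 measured genome activation factors 12 were higher after the block and 4 lower, with a median of 0.19, and in control embryos 11 were higher and 3 lower, with a median of 0.62. Of the 29 factors 7 were measured through the DRB-released library alone and could not be lower. Over all measured genes 29.4% were higher and 17.7% lower. Klf5, a Krüppel-like activator of early lineage genes, was at 29.6 and 41.5 FPKM in DRB-released and control embryos, against 0.72 FPKM in PN5. Mycn was at 18.95 and 12.6 FPKM in the late 2-cell libraries, against 0.0805 FPKM in PN5. Gabpa, the DNA-binding subunit of an Ets factor, was at 15.5 and 30.4 FPKM, against 0.372 FPKM in PN5. Factors already abundant in PN5 differed in both directions. Hsf1, the heat shock factor, was higher at 135 and 132 FPKM in DRB-released and control embryos, against 55.1 FPKM in PN5. Max, the partner of Myc proteins, was higher at 203 FPKM in DRB-released embryos, with 114 FPKM in control embryos and 97.9 FPKM in PN5. Klf17 was lower at 152 and 196 FPKM, against 371 FPKM in PN5. Yap1, the Hippo pathway coactivator, was at 812 and 663 FPKM in DRB-released and control embryos, against 425 FPKM in PN5, just under the threshold at 0.93. Nfya, a subunit of the CCAAT-binding factor NF-Y, was at 30.5 and 36.4 FPKM, against 150 FPKM in PN5, while its partner Nfyb was at 7.42 and 7.77, against 3.14 FPKM. Nr5a2, an orphan nuclear receptor, was at 16.1 FPKM in DRB-released and 28.8 FPKM in control embryos, against 17.8 FPKM in PN5.

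Many lineage factors of the blastocyst were below 1 FPKM in PN5 and could only be within the threshold or higher. This held for 14 of 28 measured pluripotency genes, 13 of 24 trophectoderm genes and 7 of 16 primitive endoderm genes. For all measured genes the shares were 29.4% higher and 17.7% lower, and 81.1% of those below 1 FPKM in PN5 were higher. Of the pluripotency genes 19 were higher and 1 lower in DRB-released embryos (median 1.77), and in control embryos 17 of 26 were higher and 0 lower (median 1.99). Sox2 was at 17.3 and 10.1 FPKM in DRB-released and control embryos, against 1.39 FPKM in PN5. Nanog was at 3.51 and 1.84 FPKM and was listed at 0 in PN5. Pou5f1, which the oocyte supplies, was at 236 and 203 FPKM, against 189 FPKM in PN5. Sall4 was the 1 lower gene, at 43.3 FPKM in DRB-released and 85.0 FPKM in control embryos, against 118 FPKM in PN5. Among the trophectoderm genes 16 were higher and 1 lower (median 1.65), and in control embryos 14 of 23 were higher and 0 lower (median 1.64). Gata2 was at 26.7 and 13.3 FPKM in DRB-released and control embryos, against 0.249 FPKM in PN5, and Eomes at 11.4 and 7.44, against 0.118 FPKM. Of the primitive endoderm genes 7 were higher and 1 lower (median 0.95), with 7 of 17 and 1 in control embryos (median 0.70). Pdgfra was at 6.41 and 2.59 FPKM, against 0.33 FPKM in PN5, and Gata6 at 4.59 and 2.54, against 0.105 FPKM.

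Immediate early genes, which respond quickly to growth factors, were mostly higher, while heat shock and chaperone genes differed in both directions. All measured genes had 29.4% higher and 17.7% lower, and 81.1% of those below 1 FPKM in PN5 were higher. Of 25 immediate early genes 20 were higher and 1 lower after the block (median 1.69), and 14 of the 25 were measured through the DRB-released library alone. In control embryos 18 of 22 were higher and 0 lower (median 1.86). Ier2 was at 26.9 and 20.3 FPKM in DRB-released and control embryos, against 0.454 FPKM in PN5. The AP-1 members Jun and Junb were at 10.1 and 20.3 FPKM in DRB-released and at 5.73 and 16.1 FPKM in control embryos, against 0.276 and 1.34 FPKM in PN5. Dusp1, a phosphatase of MAP kinases, was lower, at 23.1 and 31.6 FPKM in the late 2-cell libraries, against 53.2 FPKM in PN5. Of 27 p53 targets 15 were higher and 4 lower (median 1.02), and of 28 in control embryos 13 were higher and 3 lower (median 0.99). The DRB-released library alone brought in 5 of the 27. Cdkn1a, the cell cycle inhibitor p21, was at 25.8 and 37.1 FPKM in DRB-released and control embryos, against 0.745 FPKM in PN5. Mdm2, which degrades p53, was at 58.1 FPKM in DRB-released and 90.0 FPKM in control embryos, against 58.1 FPKM in PN5. Among 20 metallothionein and zinc transport genes 9 were higher and 1 lower in DRB-released embryos (median 0.71), and 9 were higher and 1 lower in control embryos (median 0.99). The DRB-released library alone brought in 7 of the 20, which could not be lower. Beside Mt1 and Mt2, the zinc exporter Slc30a1 was at 22.8 and 43.1 FPKM, against 10.3 FPKM in PN5, whereas Mtf1 was at 39.9 and 33.4, against 45.5 FPKM. Of 38 heat shock and chaperone genes 9 were higher and 11 lower after the block (median -0.30), and of 37 in control embryos 10 were higher and 4 lower (median 0.04). Bag3, a co-chaperone induced by heat shock, was at 12.4 and 16.1 FPKM in DRB-released and control embryos, against 0.0385 FPKM in PN5. Hsp90aa1, the inducible Hsp90, was at 16.9 and 19.2 FPKM, against 113 FPKM in PN5.

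Replication-dependent histone genes, which package newly copied DNA, held many of the most abundant higher transcripts. The shares over all measured genes were 29.4% higher and 17.7% lower. Of 59 measured, 19 of them through the DRB-released library alone, 52 were higher after the block and 1 lower, with a median of 1.92, and in control embryos 53 of 60 were higher and 1 lower, with a median of 1.93. Their summed level was 23560 FPKM in DRB-released and 19663 FPKM in control embryos, against 7232 FPKM in PN5. The linker histone gene Hist1h1a was at 5103 and 4252 FPKM in DRB-released and control embryos, against 1915 FPKM in PN5. Hist1h4c was at 2947 and 2492 FPKM, against 1066 FPKM in PN5, and Hist4h4 at 2739 and 1824, against 523 FPKM. DRB-released embryos held the highest value of each of these 3 genes. Histone gene copies share sequence, which makes single members uncertain, and most of their transcripts lack a poly(A) tail, which the rRNA-depleted libraries do not select for.

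**Figure D4:**
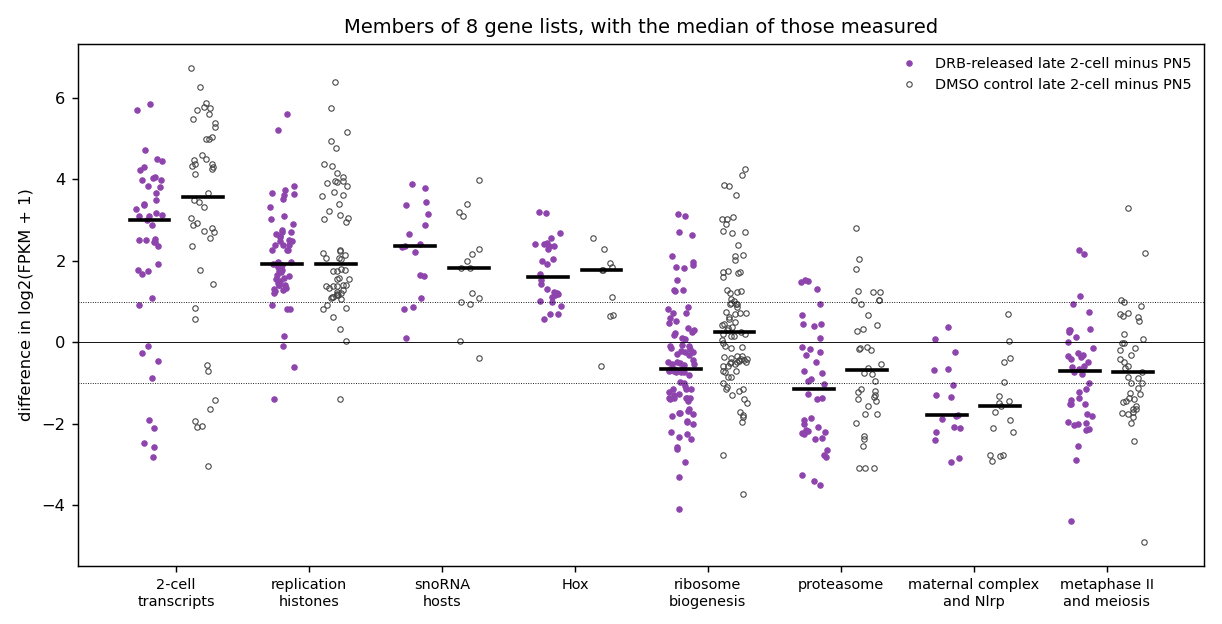
Points are members of 8 gene lists that were at 1 FPKM or more in the late 2-cell library or in PN5, as the difference in log2(FPKM + 1) from PN5, filled for DRB-released and open for control late 2-cell embryos. Bars are medians and dotted lines the threshold of 1. The medians of ribosome biogenesis genes lie at -0.65 for DRB-released and 0.25 for control embryos, while those of replication histones lie at 1.92 and 1.93.

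Genes of ribosome biogenesis were more often lower than higher after the block, and more often higher than lower in control embryos. Of 89 measured genes of this list, which build and process ribosomal subunits in the nucleolus, 13 were higher and 32 lower after the block, with a median of -0.65. In control embryos 27 were higher and 14 lower, with a median of 0.25. After the block 14.6% of the list were higher and 36.0% lower, against 29.4% and 17.7% of all measured genes. Among genes at 5 to 20 FPKM in PN5 23.0% were lower (median -0.25), and at 20 to 100 FPKM 34.9% (median -0.50). The control medians of these bands were -0.10 and -0.44. This list was not matched for level in PN5. The summed level was 1126 FPKM in DRB-released and 2145 FPKM in control embryos, against 2475 FPKM in PN5. Nop16 was at 9.87 and 16.8 FPKM in DRB-released and control embryos, against 0.214 FPKM in PN5. Nop2, a methyltransferase of ribosomal RNA, was at 9.68 and 46.2 FPKM, against 1.46 FPKM in PN5. Nop56, a core protein of box C/D snoRNPs, was lower at 13.8 FPKM in DRB-released embryos, with 39.8 FPKM in control embryos and 51.5 FPKM in PN5. Bms1 was at 10.4 and 13.9 FPKM in the late 2-cell libraries, against 196 FPKM in PN5, and Riok1, a kinase of late small subunit assembly, at 32.9 and 36.8, against 259 FPKM. The nucleolar protein gene Npm1 was at 51.8 FPKM in both late 2-cell libraries, against 117 FPKM in PN5.

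RNA polymerase I, which transcribes ribosomal RNA genes, had 5 of 14 members higher and 3 lower after the block (median 0.05), and 7 of 15 higher and 2 lower in control embryos (median 0.85). After the block 35.7% were thus higher and 21.4% lower, near the 29.4% and 17.7% of all measured genes. The upstream binding factor gene Ubtf was at 13.3 and 41.3 FPKM in DRB-released and control embryos, against 1.81 FPKM in PN5. Subunit Polr1c was at 13.6 and 52.2 FPKM, against 3.37 FPKM in PN5. Subunits of the promoter selectivity factor differed in both directions. Taf1a was at 17.0 and 28.7 FPKM in DRB-released and control embryos, against 114 FPKM in PN5, and Taf1b at 1.27 and 6.27, against 30.9 FPKM. Taf1d was higher at 36.9 and 69.7 FPKM, against 10.4 FPKM in PN5, and Taf1c was below 1 FPKM in DRB-released embryos and in PN5. Of 54 ribosomal protein genes, 17 of them measured through the DRB-released library alone, 20 were higher and 5 lower (median 0.61), and of 59 in control embryos 30 were higher and 2 lower (median 1.08). Rpl41 was at 149 and 297 FPKM in DRB-released and control embryos, against 48.0 FPKM in PN5. This list is uncertain as a whole. Its 78 genes reached 1 FPKM in 52 cases in DRB-released embryos, 57 in control embryos and 37 in PN5, but in 77 in the separately normalized MII library. Many of them have pseudogene copies.

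Several other sets of general machinery had medians below 0 after the block. No list was matched for level in PN5. Over all measured genes the median was 0.27 and 17.7% were lower. Among genes at 20 to 100 FPKM in PN5 the median was -0.50 and 34.9% were lower, and at 5 to 20 FPKM -0.25 and 23.0%. The proteasome, which degrades ubiquitin-tagged proteins, had 4 members higher and 21 lower of 40 (median -1.15), with 9 and 17 in control embryos (median -0.69). Its core subunit Psma7 was at 14.1 and 17.7 FPKM in DRB-released and control embryos, against 159 FPKM in PN5. Its activator Psme4 was at 283 and 233 FPKM, against 113 FPKM in PN5. Translation factors had 7 higher and 19 lower of 50 (median -0.80), and 8 and 11 in control embryos (median -0.06). Eif3e was at 7.70 and 8.52 FPKM, against 56.8 FPKM in PN5, and the poly(A)-binding protein gene Pabpc1 at 45.7 and 81.8, against 2.23 FPKM. Splicing factors had 11 higher and 19 lower of 49 (median -0.68), and 13 and 17 in control embryos (median -0.33). Eftud2, a GTPase of the U5 snRNP, was at 1.81 and 3.23 FPKM in DRB-released and control embryos, against 35.0 FPKM in PN5, while Snrpb was at 10.7 and 19.02, against 1.16 FPKM. Nuclear genes of oxidative phosphorylation had 8 higher and 27 lower of 70 (median -0.51), and 11 and 21 of 68 in control embryos (median -0.38). Sdhd of complex II was at 3.71 and 4.99 FPKM, against 64.3 FPKM in PN5.

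RNA polymerase II subunits and general factors had 8 higher and 9 lower of 42 (median -0.23), with 11 and 4 in control embryos (median 0.25). Polr2a, the catalytic subunit, was at 8.20 FPKM in DRB-released and 17.4 FPKM in control embryos, against 7.26 FPKM in PN5. Gtf2b, which places the polymerase at the start site, was at 27.0 and 31.5 FPKM, against 193 FPKM in PN5. Pause release and elongation factors had 3 higher and 8 lower of 36 (median -0.36), with 8 and 5 in control embryos (median 0.04). The 3 higher genes included Cdk9, the kinase that DRB inhibits, at 17.1 and 34.0 FPKM in DRB-released and control embryos, against 3.07 FPKM in PN5. Hexim1, an inhibitor of that kinase, was at 36.4 and 55.9 FPKM, against 0.576 FPKM in PN5, and Aff4, a scaffold of the super elongation complex, at 7.73 and 13.0, against 2.07 FPKM. Nelfcd and Nelfe of the pausing factor NELF were at 3.58 and 4.45 FPKM in DRB-released and at 12.0 and 15.4 FPKM in control embryos, against 19.8 and 21.2 FPKM in PN5.

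Cell cycle and replication genes had 9 higher and 19 lower of 62 (median -0.22), with 10 and 14 of 61 in control embryos (median 0.25). Ccne1, encoding cyclin E1 of the G1/S step, was at 62.6 and 141 FPKM in DRB-released and control embryos, against 3.16 FPKM in PN5. Rfc3 was at 2.17 and 3.51 FPKM, against 46.7 FPKM in PN5. Of the replicative helicase, Mcm4 was at 15.5 and 22.1 FPKM in the late 2-cell libraries, against 54.8 FPKM in PN5, and Mcm2 at 48.5 and 48.7, against 68.7 FPKM, so that Mcm2 stayed within the threshold. Nucleoporins and transport receptors had 9 higher and 16 lower of 56 (median -0.15), with 14 and 12 in control embryos (median 0.18). Kpna1 was at 20.1 and 55.9 FPKM, against 0.47 FPKM in PN5, and its oocyte-type relative Kpna7 at 38.9 and 41.0, against 173 FPKM.

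**Figure D5:**
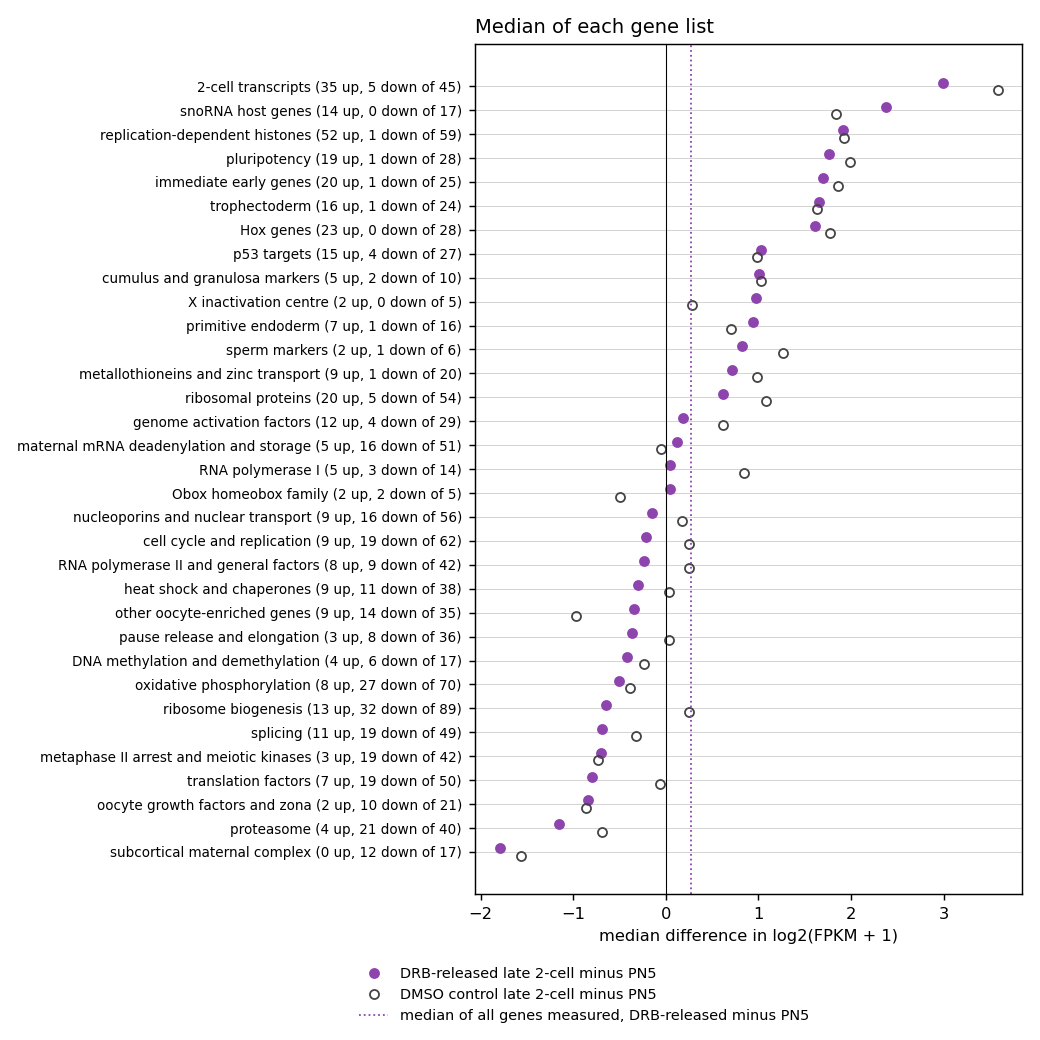
Median difference in log2(FPKM + 1) from PN5 for 33 gene lists, filled for DRB-released and open for control late 2-cell embryos, with the counts of higher and lower members after the block. The dotted line is the median of all measured genes, 0.27. The 2-cell transcripts lie highest (2.99 after the block) and the subcortical maternal complex lowest (-1.79).

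Many transcripts stored by the oocyte were lower than in PN5 in both late 2-cell libraries. The largest decreases without small RNAs began with Oog1, a PRAME family gene of the oocyte, at 0.769 FPKM in DRB-released and 1.93e-05 FPKM in control embryos, against 205 FPKM in PN5. Near-identical copies occur in the PRAME family, so the values of Oog1 are uncertain. Rgs2, a regulator of G-protein signalling that damps calcium release in the egg, was at 16.1 and 10.9 FPKM, against 356 FPKM in PN5. Zar1l, related to the maternal factor Zar1, was at 7.81 and 12.7 FPKM, against 183 FPKM in PN5. Pabpn1l, a poly(A)-binding adaptor of maternal RNA decay, was at 5.43 and 7.73 FPKM, against 129 FPKM in PN5. Oas1h, of an oocyte-expressed cluster of near-identical copies, was at 11.5 and 12.1 FPKM, against 216 FPKM in PN5. Med17, a Mediator subunit, was at 4.84 and 4.73 FPKM in the late 2-cell libraries, against 90.3 FPKM in PN5. The other decreases among the 15 largest were Rnaset2b, Gm813, A430033K04Rik, Bms1, Srfbp1, Fam50a, Rfc3, Fam162a and Taf1b.

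The subcortical maternal complex and the oocyte Nlrp genes had the lowest median of the 33 lists. The lists of stored transcripts were not matched for level in PN5. Of all genes at 100 FPKM or more in PN5 41.7% were lower (median -0.68), and of those at 20 to 100 FPKM 34.9% (median -0.50). Of 17 measured 0 were higher and 12 lower after the block, with a median of -1.79, and the counts in control embryos were also 0 and 12, with a median of -1.56. Ooep was at 155 and 117 FPKM in DRB-released and control embryos, against 825 FPKM in PN5. Padi6 was at 62.7 and 65.4 FPKM, against 456 FPKM in PN5, and Nlrp5 at 61.6 and 61.3, against 289 FPKM. Zbed3 went against the list, at 5425 FPKM in DRB-released and 3667 FPKM in control embryos, against 5112 FPKM in PN5. It supplied most of the list's summed level of 6566 FPKM in DRB-released and 4779 FPKM in control embryos, against 9412 FPKM in PN5. Among 21 oocyte growth factor and zona genes 2 were higher and 10 lower (median -0.84), with 2 and 9 in control embryos (median -0.86). Nobox, an oocyte homeobox factor, was at 9.90 and 11.5 FPKM, against 107 FPKM in PN5, and the nucleoplasmin gene Npm2 at 111 and 107, against 434 FPKM. Gdf9, a growth factor the oocyte secretes, was at 184 and 266 FPKM, against 406 FPKM in PN5, while its partner Bmp15 was at 1466 and 766, against 1393 FPKM.

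Kinases and regulators of metaphase II arrest and meiosis had 3 higher and 19 lower of 42 (median -0.70), with 3 and 19 of 43 in control embryos (median -0.73). Their 45.2% lower was near the 41.7% of all genes at 100 FPKM or more in PN5. At 20 to 100 FPKM in PN5 34.9% of all genes were lower. The lists that follow were not matched for level either. Mos, which holds the egg in metaphase, was at 3.02 and 3.50 FPKM in DRB-released and control embryos, against 15.0 FPKM in PN5. Aurka, a spindle kinase, was at 22.5 and 51.1 FPKM, against 175 FPKM in PN5, and the cyclin gene Ccnb1 at 38.9 and 20.1, against 113 FPKM. Wee2, an oocyte inhibitor of Cdk1, was at 704 and 526 FPKM, against 369 FPKM in PN5. The factors that store and deadenylate maternal RNA had 5 higher and 16 lower of 51 (median 0.12), with 11 and 16 in control embryos (median -0.05). Btg4, an adaptor of the CCR4-NOT deadenylase, was at 1948 and 1529 FPKM in DRB-released and control embryos, against 1582 FPKM in PN5. Its enzyme partner Cnot7 was at 540 and 385 FPKM, against 368 FPKM in PN5. Cpeb1, which controls cytoplasmic polyadenylation, was at 28.1 and 24.4 FPKM, against 120 FPKM in PN5. Of 17 genes of DNA methylation and demethylation 4 were higher and 6 lower (median -0.42), with 3 and 6 of 18 in control embryos (median -0.24). Dnmt1, the maintenance methyltransferase, was at 45.6 and 47.4 FPKM, against 212 FPKM in PN5, and its partner Uhrf1 at 45.9 and 62.2, against 243 FPKM. Tet3, the oxidase of the zygotic genome, was at 95.1 and 119 FPKM, against 337 FPKM in PN5, while Tet1 was at 4.51 and 4.76, against 0.485 FPKM. Other oocyte-enriched genes had 9 higher and 14 lower of 35 (median -0.34), with 4 and 17 in control embryos (median -0.97). Rfpl4, an oocyte ring finger gene, was lower at 629 and 452 FPKM in DRB-released and control embryos, against 1571 FPKM in PN5. Bcl2l10, a Bcl2 relative of the oocyte, was at 1079 and 707 FPKM, against 1806 FPKM in PN5. Omt2b was higher at 1868 and 1438 FPKM, against 643 FPKM in PN5. Tcl1 was at 2500 and 1545 FPKM, against 1287 FPKM in PN5, and Spin1 at 2619 and 2131, against 2445 FPKM. Tcl1 (0.96) and Spin1 (0.10) stayed within the threshold after the block.

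Long noncoding RNAs (lncRNAs) were measured more often through the DRB-released library alone than protein-coding genes were, 311 of 543 against 3094 of 12726. Of the 543 measured lncRNAs, as RefSeq classes them, 302 (55.6%) were higher and 35 (6.45%) lower, with a median of 1.08, against 3555 (27.9%) and 2320 (18.2%) of 12726 protein-coding genes with a median of 0.23. Among genes at 1 FPKM or more in PN5, 20.3% of 232 lncRNAs were higher and 15.1% lower, against 10.9% and 24.1% of 9632 protein-coding genes. In control embryos 178 of 413 lncRNAs were higher and 51 lower (median 0.69). Of 17 snoRNA host genes, which carry snoRNAs in their introns, 14 were higher and 0 lower after the block (median 2.37). In control embryos 11 of 15 were higher and 0 lower (median 1.83). After the block 11 of the 17 were measured through the DRB-released library alone and could not be lower. Snhg12 was at 13.8 and 15.0 FPKM and was listed at 0 in PN5, and Gas5 was at 8.34 and 7.64, against 0.765 FPKM in PN5. Those that overlap a gene on the other strand are uncertain. Malat1, a nuclear lncRNA, was at 44.7 and 18.3 FPKM in DRB-released and control embryos, against 3.28 FPKM in PN5. Of 49 measured small RNAs 32 were higher and 10 lower, and 22 of the 49 were listed at 0 in 1 of the 2 libraries. Snora68, at 501 FPKM in DRB-released embryos, was listed at 0 in control embryos and PN5, and Scarna2, at 497 FPKM in control embryos and 2267 FPKM in PN5, was listed at 0 in DRB-released embryos. Single values of such short RNAs are therefore uncertain.

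Hox genes, which pattern the body axis later in development, were measured mainly through the DRB-released library. Of 39 listed, 28 were measured, 24 of them through that library alone, and 23 were higher and 0 lower (median 1.61). These 82.1% were near the 81.1% higher among all genes below 1 FPKM in PN5. All measured genes had 29.4% higher and 17.7% lower. In control embryos 10 were measured, 7 of them higher and 0 lower (median 1.77). The summed level was 131 FPKM in DRB-released and 56.6 FPKM in control embryos, against 16.0 FPKM in PN5. Hoxb9 was at 8.59 and 4.13 FPKM, against 0.0424 FPKM in PN5. At the X inactivation centre 2 of 5 measured genes were higher and 0 lower (median 0.97), with 0 of 2 measured past the threshold in control embryos (median 0.28). The DRB-released library alone brought in 3 of the 5. Tsix was at 3.71 and 0.954 FPKM and Xist, the RNA that coats the inactive X chromosome, at 1.10 and 0.903 FPKM, and both were listed at 0 in PN5. These genes lie antisense to each other and are uncertain. Markers of other cell types were measured in part. Of 20 cumulus and granulosa genes 10 were measured, 8 of them through the DRB-released library alone, with 5 higher and 2 lower (median 1.00), and in control embryos 4 of 7 were higher and 2 lower (median 1.03). Inhba was at 0 in the 3 libraries. Foxl2, a granulosa cell factor, was at 7.20 and 1.04 FPKM in DRB-released and control embryos and was listed at 0 in PN5, while Amhr2 was at 2.12 and 16.7 and also listed at 0 there. Serpine2 was the most abundant of the list, at 57.7 and 49.5 FPKM, against 124 FPKM in PN5. The list summed to 85.7 FPKM in DRB-released and 81.2 FPKM in control embryos, against 138 FPKM in PN5. Of 15 sperm genes 6 were measured, 3 of them through the DRB-released library alone, with 2 higher and 1 lower (median 0.83), and in control embryos 3 of 5 were higher and 1 lower (median 1.26). Odf2, which also serves the centrosome of other cells, was at 101 and 81.7 FPKM in DRB-released and control embryos, against 68.7 FPKM in PN5. It supplied most of the list's sum of 119 FPKM in DRB-released and 94.7 FPKM in control embryos, against 76.6 FPKM in PN5. Prm1, Tnp2 and Smcp were at 0 in the 3 libraries. Tnp1 was at 4.98 and 1.92 FPKM in DRB-released and control embryos and was listed at 0 in PN5. Tssk6 was at 3.95 and 3.58 FPKM, against 0.0825 FPKM in PN5, and Prm2 was lower at 1.56 and 0.487, against 5.28 FPKM. The part of other cells in these values was not tested.

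The share of higher genes was largest among genes of short span. Among protein-coding genes of at most 5 kb, 52.0% of 1682 were higher after the block and 11.2% lower, with a median of 1.05. Above 100 kb, 9.77% of 1637 were higher and 14.4% lower, with a median of -0.01. The control medians of these classes were 1.07 and -0.12. Short genes were also less abundant in PN5, with a median of 1.60 FPKM, against 8.51 FPKM for the longest class. Among genes at 5 FPKM or more in PN5, 15.9% of the shortest class and 4.74% of the longest were higher, and 26.7% and 19.6% were lower. Spans are those of GRCm38.p6.

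The share of promoters with the Ets site differed between the classes and also went with the level in PN5. RefSeq promoters were found for 10303 of 12404 measured protein-coding genes on the chromosomes of the promoter table, and between 80.2% and 84.2% of each class had one. CCGGAAG stood on either strand in 12.9% of promoters of higher genes (364 of 2830), 26.7% of lower genes (505 of 1888) and 19.3% of genes within 2-fold. It was in 18.9% of all promoters of measured genes and 8.86% of all 32851 promoters in the table. Bms1 and Rfc3 each hold 2 copies. Below 1 FPKM in PN5, 9.23% of higher genes and 13.2% of genes within 2-fold held it, and 1962 of the 2830 promoters of higher genes were in this band. From 1 to 5 FPKM in PN5 the shares were 20.4% of higher, 24.1% of lower and 17.6% of genes within 2-fold. From 5 to 20 FPKM they were 22.6% of higher, 29.2% of lower and 21.8% of genes within 2-fold. From 20 to 100 FPKM they were 22.9% of higher, 28.6% of lower and 20.2% of genes within 2-fold, and at 100 FPKM or more 15.4%, 16.5% and 18.2% in the same order. Higher genes at 1 to 100 FPKM in PN5 thus held the site about as often as genes within 2-fold or slightly more often. Lower genes held it more often than genes within 2-fold in each band from 1 to 100 FPKM, but not at 100 FPKM or more. GGATTA was in 7.35% of promoters of higher genes and 7.63% of lower genes, against 7.14% of all promoters of measured genes. Zfp352 held 9 copies. Metal response elements were in 38.6% of promoters of higher genes and 39.8% of lower genes, against 40.2% of all measured. Mt2 held 4 copies and Mt1 held 3. A match is a description of letters, and binding was not measured here.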

How the data were processed

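Total RNA of DRB-released and control late 2-cell embryos and of PN5 zygotes was compared in 1 table. The authors deposited FPKM for each gene symbol. Per the submitters' processing notes, CASAVA 1.8, TopHat2 2.1.1, Cufflinks 2.1.1 and build mm9 were used. The handling of strand and of multi-mapped reads is not given in the sources used here, so overlapping, antisense and near-identical genes are uncertain. Read depth is unknown, so no counting interval is given. Of 24525 rows, 497 shared a symbol with another and were summed, which left 24028 symbols. Differences were taken in log2(FPKM + 1), with a pseudocount of 1 FPKM that understates the change of low genes, for genes at 1 FPKM or more in either library. Python 3.11.15 with pandas 2.3.3, numpy 2.4.6 and matplotlib 3.10.9 was used, and the counting was tested on simulated data. MII, early 2-cell and inner cell mass values came from tables normalized separately. The header of the MII file matches a chromatin sample's title, and its values were taken as MII RNA because the file is filed under that RNA sample. RefSeq supplied gene classes, spans and promoters, and 13438 of the 13489 measured symbols matched it.

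A rule picked the 15 strongest differences in each direction, for genes that reached 10 FPKM in either library. It also picked the 5 largest small RNAs each way. From each of 33 lists it took up to 5 measured members of highest mean level, with the largest increase and decrease. Further genes were named after their values were seen, and not every gene the rule picked is named. Members, lists and motifs were chosen with earlier results of these data known. A further 109 samples were not analysed here.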

Additional observations from a re-analysis of the deposited data

How the results depend on the processing

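With a pseudocount of 5 FPKM, 1301 genes were higher and 1510 lower, against 3963 and 2385. With a filter of 5 FPKM in at least 1 library, 1818 were higher and 2116 lower, so that 46.2% of the genes past the threshold were higher in place of 62.4%. Under that filter the control library gave 2331 higher and 1920 lower. With both libraries scaled to 1 sum without small RNAs, values also moved relative to the 1 FPKM filter and pseudocount, so that 15954 genes were measured in place of 13489; 5996 were higher, and 69.1% of genes past the threshold were higher; with median scaling this share was 69.4%. A pseudocount of 0.1 FPKM, no filter, and the highest row of a symbol left both counts within 1.5 times.

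Of 231 list medians under these settings 209 kept their sign and their side of the threshold. With a pseudocount of 5 FPKM, 6 medians fell short of it: pluripotency (0.70), trophectoderm (0.63), immediate early genes (0.85), p53 targets (0.61), Hox genes (0.64) and cumulus and granulosa markers (0.28). Under it 6 Hox and 1 primitive endoderm genes were higher, against 23 and 7. The proteasome median of -1.15 fell short of the threshold with median scaling (-0.98) and with no filter (-0.997). With no filter the cumulus and granulosa markers also fell short, at 0.60. Of the medians past the threshold 1 reversed, the cumulus and granulosa markers, at -1.09 over the genes above a 5 FPKM filter, by whose construction fewer genes were counted. The medians of RNA polymerase I (-0.04), RNA storage and deadenylation (-0.08) and sperm markers (-0.37) also turned negative under that filter. Of 1600 values of named genes 7 changed sign, 0 of them past the threshold, and 22 fell short of it. With median scaling these included Npm1 (-0.97), Gdf9 (-0.95), Dusp1 (-0.995) and Serpine2 (-0.91), while Yap1 (1.12), Wee2 (1.11) and Tcl1 (1.14) passed it. No paired analysis was possible because each group holds 1 library. The low values that set many increases cannot be weighed by depth, which is unknown.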
